A study of Mus musculus with 6 samples.

Results

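The 10 genes described here are a set of T and NK cell genes: *Cd3d*, *Cd3e*, *Cd3g*, *Cd4*, *Cd8a*, *Cd8b1*, *Nkg7*, *Gzma*, *Klrb1c* and *Cd2*. They were chosen by name and not by a measured value, from 48733 named genes in the deposited tables. A feature with the same name was found for 9 of the 10, and no value is given for *Klrb1c*. The study sequenced RNA of CC016/GeniUnc mice, an inbred Collaborative Cross strain, in 6 libraries, of which 3 carry the label bone (cortical femur freed of marrow) and 3 the label osteoblasts. Per the labels, the osteoblasts came from stromal cells of bone marrow and were held for 8 days in medium with dexamethasone (10 nM), beta-glycerophosphate (10 mM) and ascorbic acid (50 µg/ml). The bone was cleared of marrow by centrifugation, and no genotype or treatment other than this culture separates the labels. The methods give 3 mice as the source of the femora and of the marrow for culture, so bone and osteoblasts libraries may share mice, but which library came from which mouse is not given in the sources used here. The age and sex of the mice are not given there either.

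T cells recognise antigen through the T cell receptor, which signals through the gamma, delta and epsilon chains of CD3. The coreceptors CD4 and CD8 bind MHC molecules and bring the kinase LCK to the receptor. NK cells kill without an antigen receptor of this kind and share with cytotoxic T cells a machinery of granules that holds granzymes. Bone marrow contains mature T and NK cells as a minority of its leukocytes, while osteogenic medium is meant for stromal cells and not for keeping lymphocytes.

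Aligned depth, as implied by the ratio of coverage to FPKM in each table, was 13533300 to 22600000 read pairs per library. For a transcript 1 kb long, 3 read pairs were worth 0.133 to 0.222 FPKM, which covers counting error only. Marker genes divided the libraries across their labels. *Hbb-bt*, a beta-globin gene of red cells, measured 34838, 34268 and 48650 FPKM in the libraries labelled bone replicate 3, osteoblasts replicate 2 and osteoblasts replicate 3. In bone replicates 1 and 2 and osteoblasts replicate 1 it did not exceed 7.05 FPKM. The osteocyte gene *Sost* followed the same division, with 15.8 to 22.7 FPKM in the first 3 libraries and at most 0.198 FPKM in the other 3. Thus 2 libraries labelled bone were nearly without *Sost* and 2 labelled osteoblasts had it. *Bglap2*, an osteocalcin gene, divided as *Sost* did, at 1641 to 1959 FPKM in the first 3 libraries against 264 to 513 FPKM. The other measured genes of osteoblasts and osteocytes went the other way or did not divide. *Dmp1*, a matrix protein of osteocytes, was at 22.5 to 24.2 FPKM in the first 3 libraries and 50.0 to 127 FPKM in the other 3, *Ibsp*, bone sialoprotein, at 43.1 to 91.3 against 986 to 1278 FPKM, and *Phex*, an osteocyte peptidase, at 4.61 to 6.71 against 5.14 to 8.19 FPKM. In bone replicate 2 and osteoblasts replicate 1, features without a gene name took 71.5% and 65.0% of the FPKM, against 27.4 to 30.7% elsewhere. All libraries were kept under their deposited labels, and no group was formed from *Hbb-bt*. Whether labels were exchanged between libraries was not tested, and every difference between osteoblasts and bone given here is between the labels as deposited.

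All 9 measured T and NK cell genes were detected in the 3 libraries with *Hbb-bt* above 1000 FPKM, and they were listed at 0 in the other 3 with a single exception. The summed FPKM of the 9 genes was 65.6 in bone replicate 3, 87.0 in osteoblasts replicate 2 and 76.8 in osteoblasts replicate 3. It was 0 in bone replicate 2 and osteoblasts replicate 1 and 0.0392 in bone replicate 1, all of it from *Cd4*. Of 12 genes used by most cells, such as *Gapdh* and *Eef1a1*, 0 were listed at 0 in any library. Each of the 9 was higher in every library with *Hbb-bt* above 1000 FPKM than in every library below it. Of the 27562 genes above 0 in some library, 32.4% had this order, so it was not particular to lymphocyte genes. In bulk RNA, fewer cells of a type and less RNA per cell cannot be told apart.

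**Figure D1:**
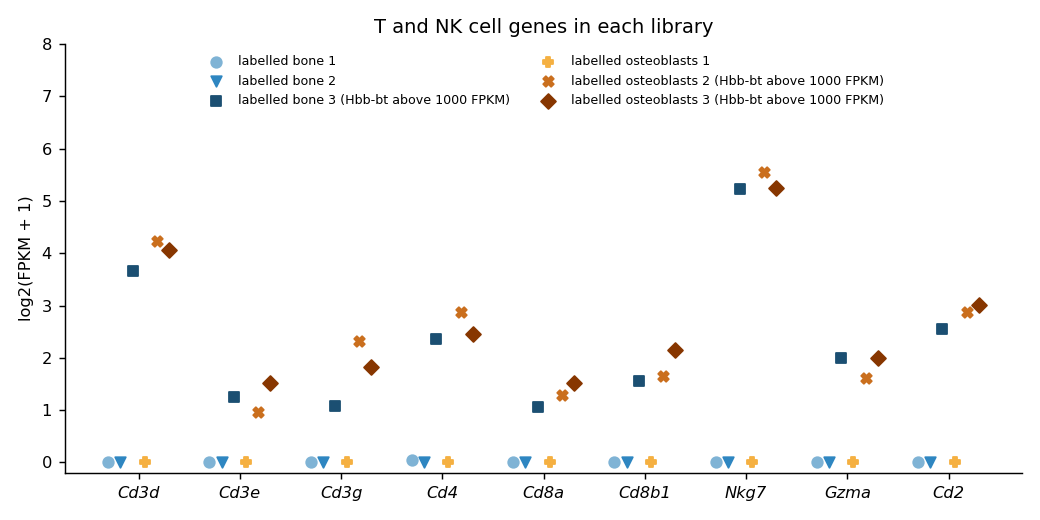
Level of the 9 measured T and NK cell genes on the scale of log2(FPKM + 1), with a point for each library in the colour and shape of its deposited label. The points of bone replicates 1 and 2 and osteoblasts replicate 1 lie at or near 0 for every gene, and those of the 3 libraries with *Hbb-bt* above 1000 FPKM lie above them.

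The 3 CD3 genes lie together on Chr. 9, and in the deposited tables (GRCm38) all 3 span 40056 bp. *Cd3g*, which encodes the gamma chain, runs on the minus strand from 44969572 to 44980431. *Cd3d*, for the delta chain, starts 1354 bp beyond it and runs on the plus strand from 44981786 to 44987339, so that the pair is transcribed away from each other. *Cd3e*, for the epsilon chain, follows after a gap of 11400 bp on the minus strand, from 44998740 to 45009627. The reference sequence upstream of the start is shown for these 3 genes because they are neighbours with a common pattern across libraries, and for *Nkg7* because it had the highest level of the set. Each is from RefSeq on GRCm38.p6, reads 5′ to 3′ on the strand of the gene and ends before the first base of the gene in both annotations. Capitals mark any match to 5 short motifs, searched on both strands. The RUNX core was searched as TGTGGT, and factors of this family are used throughout the T and NK lineages. The ETS motif, bound by a large family that is active in blood cells, was searched as AGGAAG. The E-box, read by helix-loop-helix factors of lymphocytes, was searched as CAGGTG. The motif of GATA factors, among them the one that helper T cells use, was searched as AGATAA. The TATA box, which positions the start of transcription in some genes, was searched as TATAAA.

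*Cd3g*, chr9:44980432-44980681, minus strand: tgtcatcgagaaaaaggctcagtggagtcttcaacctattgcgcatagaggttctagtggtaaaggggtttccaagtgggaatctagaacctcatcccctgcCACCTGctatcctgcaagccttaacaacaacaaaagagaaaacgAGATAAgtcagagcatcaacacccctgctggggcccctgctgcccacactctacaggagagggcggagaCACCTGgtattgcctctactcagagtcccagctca
*Cd3d*, chr9:44981536-44981768, plus strand: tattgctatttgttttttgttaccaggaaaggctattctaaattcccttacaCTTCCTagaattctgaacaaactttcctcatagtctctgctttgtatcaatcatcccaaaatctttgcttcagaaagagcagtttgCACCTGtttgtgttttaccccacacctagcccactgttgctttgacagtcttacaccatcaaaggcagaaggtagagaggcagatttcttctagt
*Cd3e*, chr9:45009664-45009861, minus strand: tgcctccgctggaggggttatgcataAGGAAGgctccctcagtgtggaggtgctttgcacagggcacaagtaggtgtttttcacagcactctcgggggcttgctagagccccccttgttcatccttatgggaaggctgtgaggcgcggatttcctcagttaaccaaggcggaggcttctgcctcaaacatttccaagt
*Nkg7*, chr7:43436888-43437072, plus strand: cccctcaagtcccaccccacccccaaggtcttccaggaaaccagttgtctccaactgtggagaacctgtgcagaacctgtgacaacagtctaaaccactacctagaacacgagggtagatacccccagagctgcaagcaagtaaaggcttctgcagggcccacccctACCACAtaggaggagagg

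Promoter sequence was available for 7 of the 10 genes, and the motifs were counted in the 250 bases before each start, of which the sequences above are the part outside the annotated genes. The *Cd3g* window held the E-box letters at 2 places and the GATA letters once. The *Cd3d* window held the E-box and the ETS letters once each, and the *Cd3e* window held the ETS letters at 2 places, of which 1 is in the stretch not shown. The *Nkg7* window held the RUNX core and the ETS letters once each, the latter in the stretch not shown. No match overlapped another in the windows of these 4 genes, and the TATA letters were in none of the 7 windows. Of 32851 mouse promoter windows of the same length, 29.5% held the ETS letters, 17.2% the E-box, 14.0% the RUNX core, 12.4% the TATA box and 9.99% the GATA letters. These matches are descriptions of letters and not of bound sites.

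*Cd3d* was the most abundant of the CD3 genes. It measured 11.6 FPKM in bone replicate 3, 17.8 in osteoblasts replicate 2 and 15.7 in osteoblasts replicate 3, and 0 in the other 3 libraries. *Cd3e* measured 1.39, 0.956 and 1.86 FPKM in the same order and 0 in the others. *Cd3g* measured 1.10, 3.98 and 2.56 FPKM and 0 in the others. The levels under each label therefore overlapped for all 3 genes, since each label held at least 1 library at 0. Within a library, FPKM of *Cd3d* was 8.36, 18.6 and 8.45 times that of *Cd3e* in bone replicate 3 and osteoblasts replicates 2 and 3. By the deposited coverage, which is read depth averaged along the feature, the same ratios were 25.0, 34.9 and 18.8. The order of *Cd3d* above *Cd3e* was thus the same on either measure, while its size was not. *Cd3g* and *Cd3e* had no stable order: the FPKM ratio of *Cd3g* to *Cd3e* was 0.795, 4.17 and 1.37. The coverage behind *Cd3e* was only 0.996, 1.29 and 1.78 reads per base in these libraries, and that behind *Cd3g* 0.985, 3.60 and 2.08.

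**Figure D2:**
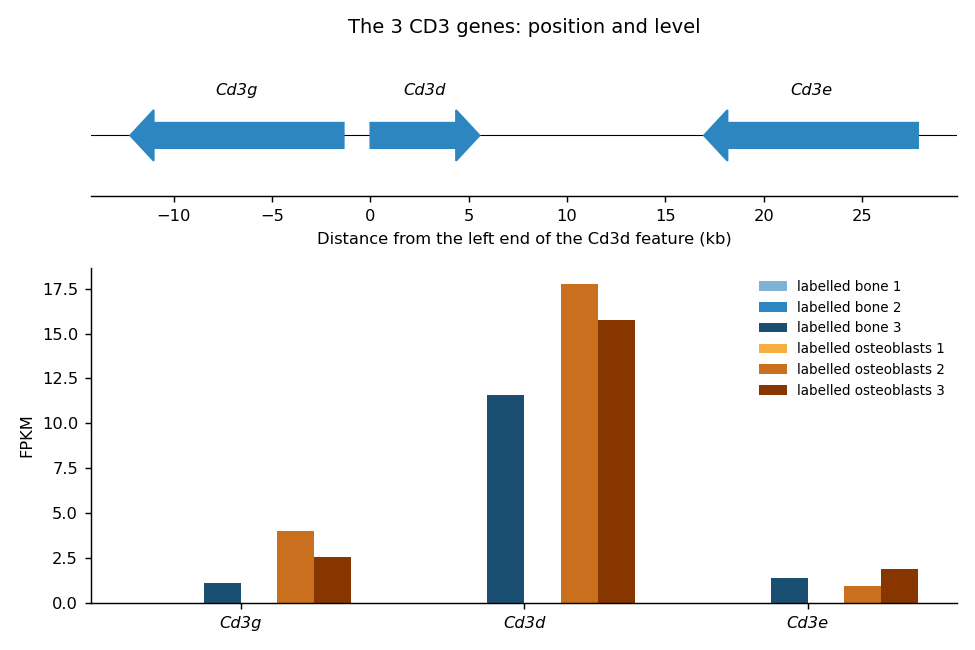
Upper panel, position and direction of *Cd3g*, *Cd3d* and *Cd3e* as distance in kb from the left end of the *Cd3d* feature. Lower panel, FPKM of each gene in each library, where *Cd3d* reached 11.6 to 17.8 FPKM in 3 libraries and neither neighbour exceeded 3.98 FPKM.

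The coreceptor genes were detected in the same 3 libraries. *Cd4*, the coreceptor of helper T cells, measured 4.16, 6.37 and 4.50 FPKM in bone replicate 3 and osteoblasts replicates 2 and 3. It was 0.0392 FPKM in bone replicate 1, below the level of 3 read pairs on 1 kb, and 0 in bone replicate 2 and osteoblasts replicate 1. *Cd8a*, the alpha chain of CD8, measured 1.09, 1.44 and 1.85 FPKM and 0 in the other 3 libraries. *Cd8b1*, the beta chain, measured 1.95, 2.13 and 3.43 FPKM and 0 in the others. *Cd8b1* and *Cd8a* are neighbours on Chr. 6 with a gap of 35932 bp, and *Cd8b1* stood at 1.78, 1.48 and 1.86 times *Cd8a* in FPKM. *Cd4*, on the same chromosome from 124864692 to 124888221, stood at 3.81, 4.43 and 2.44 times *Cd8a* and at 2.13, 3.00 and 1.31 times *Cd8b1* in FPKM. By coverage the ratio of *Cd4* to *Cd8b1* was 1.42, 2.05 and 0.898, so the order of this pair in osteoblasts replicate 3 depended on the measure, while that of *Cd4* above *Cd8a* did not. *Cd2*, an adhesion receptor of T and NK cells on Chr. 3 (101275899 to 101287939), measured 4.89, 6.35 and 7.08 FPKM and 0 in the others. Its ratio to *Cd3d* was 0.423, 0.357 and 0.449.

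The effector genes held both the highest level and a low level of the set. *Nkg7*, which encodes a membrane protein of cytotoxic granules, measured 36.4, 46.0 and 36.7 FPKM in bone replicate 3 and osteoblasts replicates 2 and 3, and 0 in the other 3. Its rank lay above 89.8 to 91.5% of the genes that reached 1 FPKM in those libraries and made up 55.5, 52.8 and 47.9% of the sum over the 9 genes. *Gzma*, for the protease granzyme A, lies on Chr. 13 (113093825 to 113100981) and measured 3.01, 2.05 and 2.99 FPKM and 0 in the others. *Nkg7* therefore stood at 12.1, 22.5 and 12.3 times *Gzma*. Against *Prf1*, for the pore-forming protein perforin, it stood at 23.3, 38.1 and 30.9 times, and against *Ncr1*, an activating receptor of NK cells, at 40.0, 40.2 and 31.7 times. Across these 3 libraries the highest level of *Nkg7* was 1.26 times its lowest, the least spread of the 9 genes, and that of *Cd3g* was 3.62 times its lowest, the widest.

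*Klrb1c*, a lectin-like receptor of NK cells, lies on Chr. 6 from 128778485 to 128788641 in RefSeq on GRCm38.p6, inside a feature that the deposited tables name *Klrb1a*. That feature runs from 128609227 to 128826331 and holds 5 protein-coding genes, so its level cannot be assigned to *Klrb1c*.

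**Figure D3:**
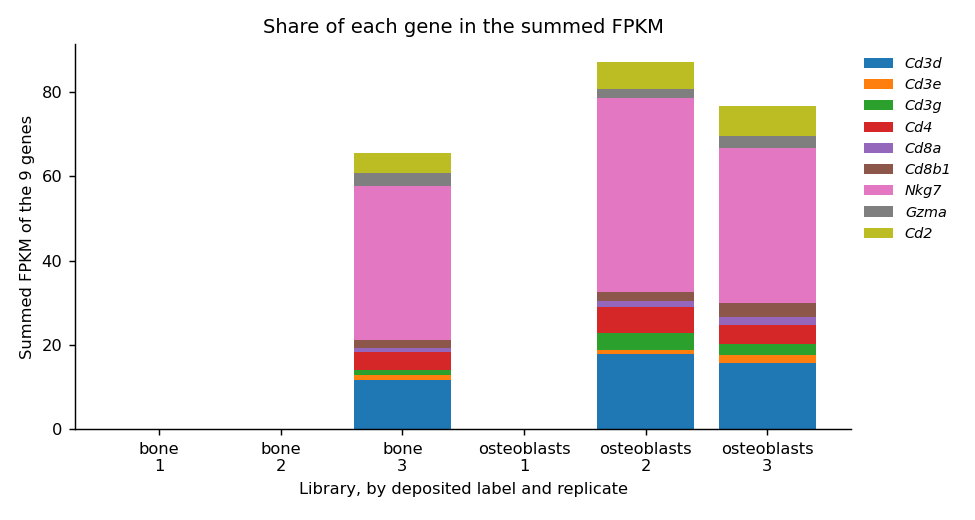
Bars give the summed FPKM of the 9 measured genes in each library, stacked by gene. *Nkg7* is the largest part of each of the 3 visible bars, which reach 65.6, 87.0 and 76.8 FPKM, and the other 3 libraries have no visible bar.

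Relative to the FPKM on named genes, the 9 genes took 0.00749% in bone replicate 3, 0.0101% in osteoblasts replicate 2 and 0.00932% in osteoblasts replicate 3. Leukocyte RNA as such was present in all 6 libraries. *Ptprc*, which encodes the common leukocyte antigen CD45, had 29.0, 18.4 and 12.9 FPKM under the label bone and 11.9, 28.8 and 39.3 FPKM under the label osteoblasts, in order of replicate. The summed T and NK cell genes per FPKM of *Ptprc* came to 5.09, 3.02 and 1.95 in bone replicate 3 and osteoblasts replicates 2 and 3 and to at most 0.00135 in the other 3. Macrophage genes were at their highest in the libraries where the 9 genes were at or near 0. *Lyz2*, the lysozyme of myeloid cells, measured 3955 to 7332 FPKM there against 1280 to 1596 FPKM in the others, and *C1qa*, a complement gene of macrophages, 575 to 1156 against 173 to 241 FPKM.

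To compare the deposited labels, osteoblasts were set against bone with limma on log2(FPKM + 1) over the 12112 genes whose FPKM averaged 1 or more. This compares T and NK cell transcripts between the labels as deposited. Because marker genes divided the libraries across those labels, it cannot say whether bone and cultured osteoblasts differ. Of the 9 genes, 7 passed this filter, and each did so only through 3 libraries. None of the 7 was called at an adjusted p under 0.05, and 0% of all genes tested were called in either direction, with 17 at an unadjusted p under 0.05. Each of the 7 had a higher mean under the label osteoblasts, from 0.53 for *Gzma* to 1.86 for *Nkg7* on the log2 scale, with a median of 1.03. Over all genes tested the median difference was 0.12, and 62.6% of the differences were above 0. For *Nkg7* the difference was 1.86 with a standard error of 1.71 (limma, Benjamini-Hochberg adjusted p = 0.999), and for *Cd3d* it was 1.55 with a standard error of 1.29 (limma, adjusted p = 0.999). The spread within a label was larger than either difference, with an SD of 3.02 for *Nkg7* and 2.11 for *Cd3d* under bone and 3.12 and 2.40 under osteoblasts (n = 3 each, log2 scale). *Cd3e* and *Cd8a*, which were under the filter, differed by 0.41 and 0.58 (exact permutation test, two-sided, p = 0.7 and p = 0.4, where 3 against 3 allows no p below 0.1).

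The comparison moved with single libraries, in both directions. In osteoblasts replicate 1 all 9 measured members were listed at 0. Without that library, limma called *Cd3d* (2.93, adjusted p = 0.0163) and *Nkg7* (3.65, adjusted p = 0.0104) higher under osteoblasts, among 300 calls over all genes. Without bone replicate 3, 77 genes were called and none of the 7 was among them, the lowest adjusted p of a member being 0.0543 (limma). Without any 1 of the other 4 libraries, no gene was called by limma, with 6 to 30 at an unadjusted p under 0.05, and the differences of *Cd3d* and *Nkg7* were smaller than with all 6. For *Cd3d* they were 0.94 without bone replicate 1 or 2, 0.82 without osteoblasts replicate 2 and 0.90 without osteoblasts replicate 3, and for *Nkg7* 0.98, 0.88 and 1.03, with adjusted p from 0.997 to 1 (limma).

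**Figure D4:**
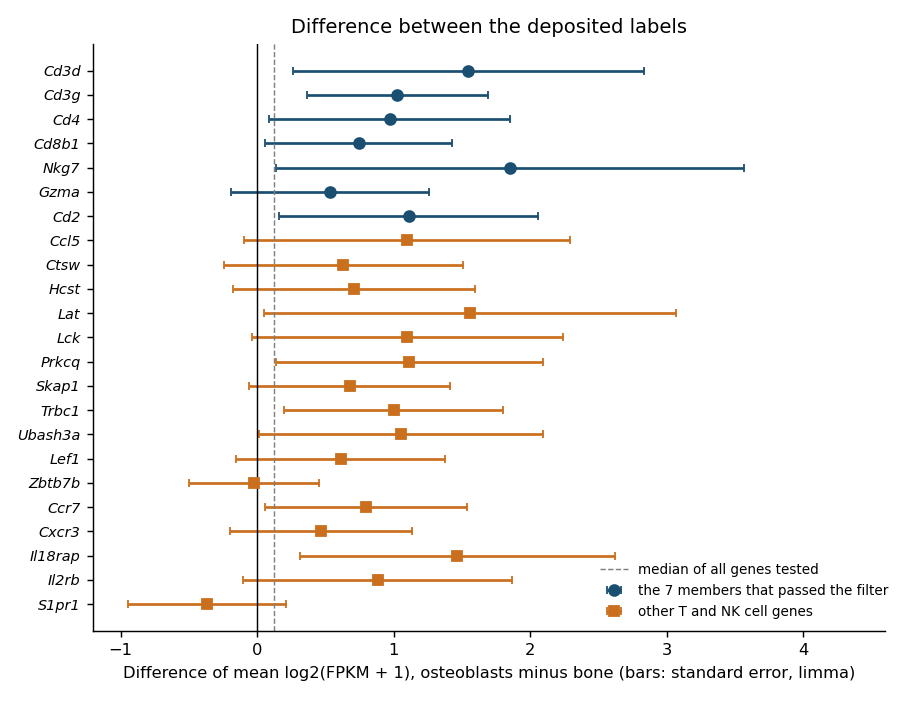
Difference of mean log2(FPKM + 1), osteoblasts minus bone, for the 7 T and NK cell genes that passed the filter and for 16 other T and NK cell genes. Bars are the standard error of limma, and the dashed line is the median of all genes tested, 0.12, while the 7 genes lie between 0.53 and 1.86.

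The wider T and NK cell programme was described with 57 other genes in 4 lists, of which 47 have a feature of that name and 16 passed the filter. None of the 16 was called between the labels, and 0% of all genes tested were. Of the 16, 14 had a higher and 2 a lower mean under osteoblasts, with a median difference of 0.84 on the log2 scale. Over all genes tested 62.6% of the differences were above 0, with a median of 0.12. Apart from *Zbtb7b*, *S1pr1* and *Hcst*, the 16 reached 1 FPKM only in bone replicate 3 and osteoblasts replicates 2 and 3. More of those libraries are labelled osteoblasts than bone, so their common direction could hardly differ and is no further support. Without osteoblasts replicate 1, *Lat* (3.10, limma adjusted p = 0.0248) and *Il18rap* (2.72, limma adjusted p = 0.0205) were called, among 300 calls over the 12112 genes tested. The library left out held *Lat* at 0.110 FPKM and *Il18rap* at 0.0760 FPKM, so these calls depend on its removal.

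Of the T cell receptor and its signalling, 15 of 19 genes had a named feature. Of the 15, 12 were higher in each library with *Hbb-bt* above 1000 FPKM than in the other 3. Over all genes above 0 in some library, 32.4% had this order. *Lat*, the adaptor that links the receptor to its downstream enzymes, measured 26.5, 28.3 and 23.9 FPKM in bone replicate 3 and osteoblasts replicates 2 and 3 and at most 0.145 FPKM elsewhere. *Lck*, the kinase of the coreceptors, measured 9.97, 10.4 and 9.21 FPKM against at most 0.0832 FPKM. *Ubash3a*, a negative regulator of receptor signalling, measured 7.32, 7.39 and 7.87 FPKM and was listed at 0 in the other 3. *Prkcq*, the protein kinase C of T cell activation, measured 5.37, 6.19 and 8.38 FPKM against at most 0.0426 FPKM. These signalling genes were thus above *Cd3e*, *Cd3g* and *Cd8a* in FPKM in each of the 3 libraries, and *Lck* stood at 0.861, 0.587 and 0.585 times *Cd3d*.

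The transcription factors did not all follow this order. Of 6 measured genes, 4 were higher in each of the 3 libraries, against 32.4% of all genes above 0 in some library. *Zbtb7b*, which directs helper T cell fate, had 19.4, 10.9 and 23.1 FPKM under the label bone and 12.2, 19.1 and 20.1 FPKM under the label osteoblasts, in order of replicate, so it was well detected where the 9 genes were at or near 0. *Lef1*, a partner of beta-catenin in developing lymphocytes, measured 3.75, 2.65 and 4.84 FPKM in bone replicate 3 and osteoblasts replicates 2 and 3 against at most 0.174 FPKM elsewhere. *Tbx21*, the factor T-bet of cytotoxic and interferon-producing cells, measured 0.784, 0.711 and 0.539 FPKM and was listed at 0 elsewhere. *Bcl11b*, required for T lineage commitment, did not exceed 0.698 FPKM.

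Over all genes above 0 in some library, 32.4% were higher in each of the 3 libraries and 9.32% were lower. Among homing and cytokine receptors, 6 of 10 measured genes were higher and 1 was lower. The latter was *S1pr1*, the sphingosine phosphate receptor by which lymphocytes leave tissue and which endothelium also expresses, with 7.39, 7.92 and 9.52 FPKM in bone replicate 3 and osteoblasts replicates 2 and 3 against 30.1, 12.9 and 17.0 FPKM in the other 3 libraries. *Il18rap*, a subunit of the interleukin-18 receptor, measured 8.48, 14.1 and 12.9 FPKM against at most 0.0760 FPKM. *Il2rb*, the shared beta chain of the interleukin-2 and interleukin-15 receptors, measured 6.68, 8.30 and 4.37 FPKM against at most 0.0677 FPKM. *Cxcr3*, a chemokine receptor of effector T cells, measured 2.95, 4.12 and 2.05 FPKM against at most 0.573 FPKM.

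Of NK receptors and cytotoxic effectors, 12 of 16 measured genes were higher in each of the 3 libraries, against 32.4% of all genes. *Hcst*, the signalling adaptor of the receptor NKG2D, measured 24.6, 25.7 and 24.0 FPKM in these 3 libraries and 3.94, 3.86 and 3.02 FPKM in the other 3, so it too was detected without the 9 genes. *Ccl5*, a chemokine of cytotoxic lymphocytes, measured 11.0, 16.1 and 5.90 FPKM and was listed at 0 elsewhere. *Ctsw*, a cathepsin of cytotoxic lymphocytes, measured 5.50, 5.44 and 4.47 FPKM against at most 0.234 FPKM. *Prf1* measured 1.56, 1.21 and 1.19 FPKM and was listed at 0 elsewhere.

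Markers of other cell types moved with the T and NK cell genes. All 9 measured neutrophil genes, all 3 muscle genes, 9 of 10 B-cell genes and, besides *Hbb-bt* itself, all 3 measured erythroid genes were higher in each library with *Hbb-bt* above 1000 FPKM, an order that 32.4% of genes had. Summed over its list, B-cell FPKM was 159 to 173 in these 3 libraries and 7.66 to 21.3 in the others, where *Ebf1* made up most of it and *Cd79a* and *Cd79b*, of the B cell receptor, were at 0. *Cd79b* measured 50.7, 60.0 and 55.5 FPKM in the 3 libraries, above *Nkg7* in each, and *Cd79a* 24.8, 27.2 and 27.5 FPKM. Neutrophil FPKM summed to 14332 to 17357 against 2.53 to 9.91. The calprotectin genes *S100a9* and *S100a8* of these cells reached 4775 to 8033 and 2179 to 3247 FPKM. *Alas2*, which starts heme synthesis in red cell precursors, was at 732 to 910 FPKM against at most 0.208 FPKM. Muscle FPKM summed to 943, 221 and 461 in bone replicate 3 and osteoblasts replicates 2 and 3 and to at most 1.09 elsewhere. Of it, *Acta1*, the actin of skeletal muscle, gave 558, 109 and 246 FPKM, and *Tnnt3*, a troponin of fast fibres, 213, 66.8 and 134 FPKM.

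Lists of dendritic cells and of leukocytes in general divided less clearly. Dendritic cell genes summed to 67.6 to 81.5 FPKM against 30.4 to 60.0, and 4 of 6 had the order of the T and NK cell genes. Among them *Irf8*, a factor of dendritic cells and monocytes, was at 38.6 to 44.3 against 10.9 to 20.1 FPKM, while *Bst2*, an interferon-induced surface protein, overlapped at 20.6 to 26.7 against 19.1 to 38.8 FPKM. Genes of leukocytes in general summed to 801 to 898 FPKM against 209 to 367, and 2 of 5 had this order. Over all genes above 0 in some library the share was 32.4%. *Coro1a*, an actin regulator of leukocytes, was at 419 to 455 against 35.3 to 66.1 FPKM, and *Laptm5*, a lysosomal protein of blood cells, overlapped at 139 to 154 against 116 to 214 FPKM.

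In the opposite direction, 8 of 9 macrophage genes were lower in each of the 3 libraries, with sums of 1697 to 2096 FPKM against 5601 to 10141. Of the 27562 genes above 0 in some library, 9.32% had this lower order. Genes of marrow stroma summed to 302 to 442 FPKM against 905 to 2138, and 4 of 8 were lower and 2 higher in each of the 3 libraries. *Col3a1*, a fibrillar collagen, was at 145 to 284 against 555 to 1394 FPKM, and *Postn*, a matrix protein of fibroblasts and periosteum, at 16.7 to 21.0 against 141 to 342 FPKM. Osteoblast and osteocyte genes were present in every library, at 3601 to 4399 against 3201 to 5166 FPKM in sum. Of 8 measured, 2 were higher and 3 lower, against 32.4% and 9.32% of all genes. *Col1a1*, the main collagen of bone, was at 1499 to 3332 FPKM over all 6, and *Bglap2*, an osteocalcin gene, at 1641 to 1959 against 264 to 513 FPKM. The part of any of these cell types in the levels of the T and NK cell genes was not tested.

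**Figure D5:**
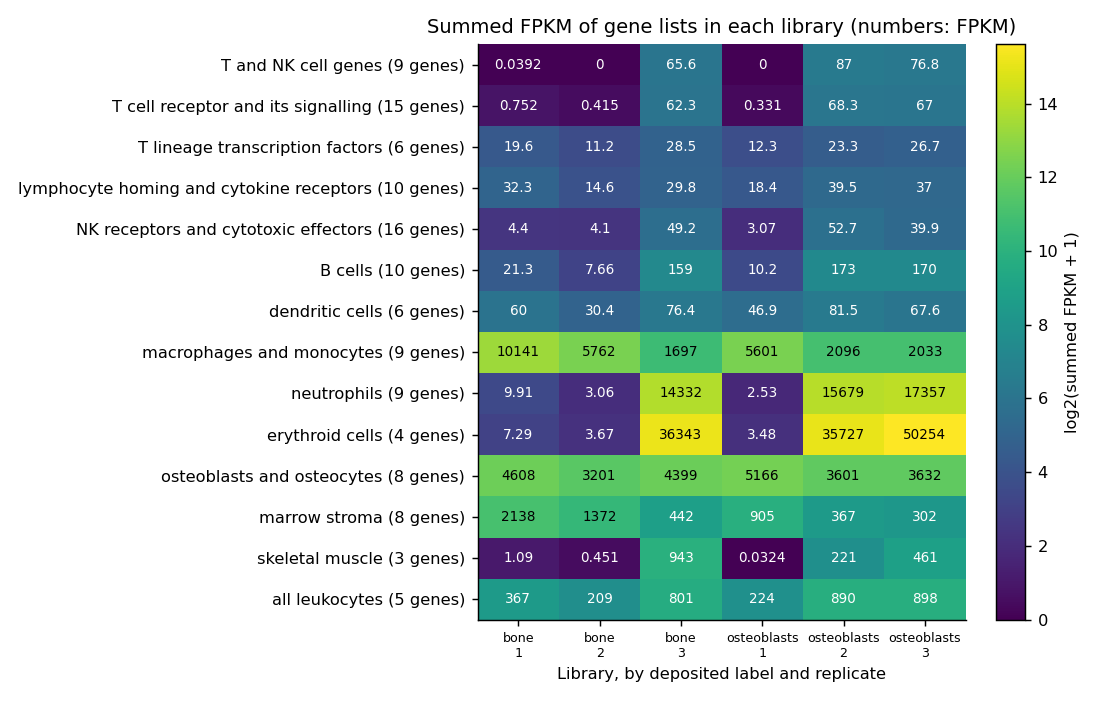
Summed FPKM of each gene list in each library, with the colour on the scale of log2(summed FPKM + 1) and the sum printed in each cell. The T and NK cell, B cell, neutrophil and muscle rows are high in bone replicate 3 and osteoblasts replicates 2 and 3, the erythroid row is mostly *Hbb-bt*, by which libraries are told apart here, and the macrophage and stromal rows are high in the other 3 libraries.

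The genes whose division over the 6 libraries was most like that of the summed CD3 genes were sought among the 12112 genes of the filtered table, with the members left out. The measure was the summed absolute difference of their shares per library. Bone replicate 3 held 24.7%, osteoblasts replicate 2 39.9% and osteoblasts replicate 3 35.4% of the CD3 sum. The nearest was *Hdc*, histidine decarboxylase of basophils and mast cells, at a difference of 0.0157, with 17.4, 27.2 and 23.9 FPKM in these libraries and at most 0.0427 FPKM elsewhere. Next came *Slamf1* (0.0219), a costimulatory receptor of lymphocytes, *Il18rap* (0.0265) and *Siglech* (0.0271), a marker of plasmacytoid dendritic cells. The remaining 6 of the first 10 were *Ighv8-12*, *F2rl2*, *Igha*, *Trbc1*, *Ubd* and *Gpihbp1*, at differences of up to 0.0495. Of these, *Trbc1* encodes a constant region of the T cell receptor and measured 2.86, 4.61 and 4.51 FPKM. The 10 genes thus included T cell, B cell and dendritic cell genes besides *Hdc*, and with 3 libraries near 0 the measure rests on 3 values.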

How the data were processed

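RNA of 3 libraries labelled bone and 3 labelled osteoblasts was measured by 2 x 75 bp sequencing. Per the paper's methods and the submitters' processing notes, the authors aligned reads to GRCm38 with HISAT2 2.0.5 and estimated expression with StringTie 1.3.3. The authors deposited coverage, FPKM and TPM for each feature. FPKM is scaled to all aligned reads, TPM is the same value rescaled within a library, and no read counts were used here. Some neighbouring genes share a merged feature, so a gene inside another's feature has no value.

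FPKM was summed by gene name. The study states no test between labels, and limma 3.58.1 in R 4.3.3 (trend, Benjamini-Hochberg, threshold 0.05) was run across all genes on log2(FPKM + 1), after tests on simulated data. The simulated libraries had the same spread for every gene and no division across labels, so they checked the code and not this setting. Exact permutation tests were two-sided (Python 3.11.15, scipy 1.17.1). Depth was inferred per library by dividing coverage by FPKM over features covered more than 1-fold and taking the commonest quotient. There were 0 pairs of libraries with identical values. The methods give 3 mice, and no source used here ties a library to a mouse, so libraries were fitted as unlinked and the p-values measure the spread between them.

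Members and lists were chosen with earlier results of these data known. Named genes are the 10 members, *Hbb-bt*, the 4 of each T and NK list and 2 of each other list with the highest mean FPKM, and the 10 genes nearest to the CD3 sum in profile. *Sost*, *Dmp1*, *Ibsp*, *Phex*, *Ptprc*, *Ncr1*, *Ebf1*, *Gapdh*, *Eef1a1* and the motifs fall outside this rule and were chosen after values were seen. The alternatives were pseudocounts of 0.1 and 0.01, a filter at a mean FPKM of 0.1 or none, TPM, scaling to named genes or to the 75th percentile, limma without a trend, a replicate block, and leaving out each library. An item withheld here is not reported.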

Additional observations from a re-analysis of the deposited data

Results flagged for a closer look

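The feature named *Klrb1a*, which spans *Klrb1c* and is outside the comparisons above, carried signal above the level of 3 read pairs on 1 kb in 3 libraries. Its levels were 2.68 FPKM for bone replicate 3 and 3.65 and 4.32 FPKM for osteoblasts replicates 2 and 3. In bone replicate 1 the feature stood at 0.0597 FPKM, and it was listed at 0 in the remaining 2 libraries. Which of its 5 protein-coding genes the reads come from was not tested.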

How the results depend on the processing

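The 7 tested members had a higher mean under osteoblasts in every alternative fit. Each of the 7 reached 1 FPKM only in bone replicate 3 and osteoblasts replicates 2 and 3. Every alternative kept a larger share of such libraries under osteoblasts, so the common direction could hardly differ and is no further support. Of 105 values, 103 stayed on the same side of the threshold, and the other 2 are *Cd3d* and *Nkg7* without osteoblasts replicate 1. Leaving out each library gave 0 to 300 called genes over all genes and 0 to 2 among the other T and NK cell genes. The replicate block called 49 genes, 46 higher and 3 lower under osteoblasts, and none of the members, whose lowest adjusted p was then 0.187 (limma). Whether the numbers pair the libraries cannot be told from these values. Same-numbered deviations from the label means correlated at 0.84, -0.75 and 0.83 across genes. Of the 3 bone libraries, 1 correlated best with the osteoblasts library of its own number. Such deviations can also follow the division of marker genes across the labels, so they cannot show whether mice were shared. The other alternatives with all 6 libraries called 0 genes by limma, with 17 to 173 at an unadjusted p under 0.05. The median difference of the tested members was 0.56 to 1.86 when a library was left out. With all 6 libraries it was 0.91 (scaled to named genes, where the median of all genes moved from 0.12 to -0.03) to 3.28 (pseudocount 0.01). The cause of these shifts was not tested. FPKM without counts gives no interval for a single library.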

Other observations

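Several T and NK cell genes without a feature of their own name lie within features that carry signal. An unnamed feature over *Trbc2*, a constant region of the T cell receptor beta chain, measured 6.59, 9.43 and 14.4 FPKM in bone replicate 3 and osteoblasts replicates 2 and 3, 0.176 FPKM in bone replicate 1 and 0 in the remaining 2. The feature over *Trac*, the constant region of the alpha chain, is named *Traj23* and measured 2.71, 8.40 and 4.29 FPKM in the same 3 libraries. It also measured 2.00 FPKM in bone replicate 1, 0.343 FPKM in bone replicate 2 and 0.157 FPKM in osteoblasts replicate 1, so that in bone replicate 1 it was above 0 while the CD3 genes were listed at 0. The feature over *Cd247*, the zeta chain that signals with CD3, is named *Gm16565* and measured 1.79, 3.29 and 3.26 FPKM against at most 0.125 FPKM. These features were looked up after the values of the named genes had been seen, and no test was run on them.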
